A study of Mus musculus with 4 samples.

Results

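Mitochondria fuse and divide, and damaged ones are removed by mitophagy. The 10 genes described here encode central proteins of these processes: Mfn1, Mfn2, Opa1 and Oma1 for fusion and its control, Dnm1l, Fis1 and Mff for fission, and Pink1, Bnip3 and Fundc1 for mitophagy. They were selected by symbol from the 55387 rows of each expression table. All 10 were found, and all 10 exceeded an averaged FPKM of 1 in at least 1 genotype, the level that genes had to reach to be tested.

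RNA was sequenced from brown adipose tissue (BAT) of 15-week-old males, with 2 mice of the Sox4f/f control genotype and 2 of their Sox4-MKO littermates. Sox4f/f mice carry floxed alleles of Sox4, which encodes an HMG-box transcription factor, and are labelled as wild type. Sox4-MKO mice carry the same floxed alleles together with Myf5-Cre. Myf5 is expressed in precursors of both brown adipocytes and skeletal muscle, so recombination is not limited to brown adipocytes. The comparison asked how the loss of Sox4 alters the transcriptome of BAT.

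In the outer mitochondrial membrane, the GTPases mitofusin 1 and mitofusin 2 join neighbouring mitochondria, and OPA1 fuses their inner membranes and keeps the cristae narrow. OMA1 is a stress-activated protease that cleaves OPA1, which limits fusion. DRP1, the product of Dnm1l, is a cytosolic GTPase that is recruited by adaptors such as MFF and constricts mitochondria until they divide. The kinase PINK1 gathers on depolarised mitochondria and marks them for removal through ubiquitin, whereas BNIP3 and FUNDC1 sit in the outer membrane and bind LC3-family proteins of the autophagosome directly. In brown adipocytes, noradrenaline causes mitochondria to fragment, and mitophagy removes mitochondria when thermogenic stimulation ends.

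The sequences before the transcription start of the members are shown where they hold the NRF1 motif, since NRF1 is a regulator of many nuclear genes for mitochondrial proteins. The RefSeq start sites on GRCm38.p6 gave a promoter window for all 10 members, in 15 windows, and the 250 bases before each start were searched on both strands. The NRF1 motif, with GCGC at each end and any base followed by T between them, was present before 4 members, namely Opa1, Oma1, Pink1 and Bnip3, and before 4.23% of the 27025 genes with such a window. The stretches before the first exon of Opa1 (chr16:29579084-29579333, plus strand) and Bnip3 (chr7:138909520-138909756, minus strand), and 30 bases around the match in Oma1 (chr4:103313813-103313842, plus strand) and Pink1 (chr4:138326287-138326316, minus strand), are given 5′ to 3′ with the matches in capitals.
Opa1: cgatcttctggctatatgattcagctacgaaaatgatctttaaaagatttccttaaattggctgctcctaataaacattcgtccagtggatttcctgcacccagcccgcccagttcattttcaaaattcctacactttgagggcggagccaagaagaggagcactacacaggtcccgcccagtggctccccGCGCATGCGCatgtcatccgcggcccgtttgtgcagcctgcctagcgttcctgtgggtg
Bnip3: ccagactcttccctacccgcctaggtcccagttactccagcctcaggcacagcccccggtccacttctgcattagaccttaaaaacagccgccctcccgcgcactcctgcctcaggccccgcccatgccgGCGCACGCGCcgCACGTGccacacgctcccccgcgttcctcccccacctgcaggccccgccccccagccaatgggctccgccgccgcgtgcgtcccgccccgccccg
Oma1: ggaaaggtgtGCGCCTGCGCggagccggct
Pink1: accgccccccGCGCTTGCGCacaggcgccg

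The second block of capitals in the Bnip3 sequence is a pair of overlapping matches, on opposite strands, to the core ACGTG of the hypoxia response element. Bnip3 is a known target of hypoxia-inducible factors. ACGTG also stood before Mfn2, and before 18.5% of all genes with a window. The EBF motif CCCNNGGG, searched because Ebf2 is a brown adipocyte fate factor, was found before Oma1, Dnm1l and Fis1, and before 13.4% of all genes. The SOX motif AACAAAG and the ERR motif AAGGTCA, which stood before 5.77% and 4.70% of all genes, had no match in the windows of the 10 members. These are matches of letters, and binding was not measured here. In Oma1 and Pink1 the NRF1 match lay inside the first exon of the GENCODE annotation, which starts upstream of the RefSeq start. The ACGTG match of Mfn2 and the EBF match of Dnm1l likewise lay inside the annotated gene, downstream of its GENCODE start.

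Before the genotypes were compared, the libraries were checked against their labels. The control libraries had 1.98 and 1.06 FPKM of Sox4 itself, and those labelled Sox4-MKO had 0.981 and 3.06 FPKM, so its RNA did not separate the genotypes (log2 fold change 0.20, SE 0.43, limma adjusted p = 0.843). In BAT of younger Sox4-MKO mice the study reports a strong loss of SOX4 protein. Which part of the transcript the floxed allele removes was not given in the sources used here. A gene-level FPKM may thus not report the deletion. All directions below are therefore between libraries as labelled. All 13 brown adipocyte markers were above 0 in every library, with sums of 8640 and 8378 FPKM in Sox4f/f and 4455 and 5166 FPKM in Sox4-MKO. Ucp1, the uncoupling protein of thermogenesis, was at 1935 and 1814 FPKM in Sox4f/f and 733.5 and 1105 FPKM in Sox4-MKO (log2 fold change -1.06, adjusted p = 0.213). The sum of 10 skeletal muscle markers, none of which was at 0, was 259.8 and 849.0 FPKM in Sox4f/f but 15300 and 2945 FPKM in Sox4-MKO. Of these markers, 8 of 10 had an unadjusted p under 0.05 in the higher direction, beside 7.95% of all tested genes. Markers of macrophages (134.5 and 184.4 FPKM against 300.9 and 261.4) and of fibroblasts and progenitors (271.3 and 312.3 against 665.3 and 617.6) also had higher sums in Sox4-MKO. White adipocyte markers had sums of 241.8 and 193.3 FPKM in Sox4f/f and 584.5 and 626.5 FPKM in Sox4-MKO. Of the 6 tested, 4 were called higher, beside 7.95% of all tested genes, and Hoxc9 and Hoxc10 were at 0 in at least 1 library. Endothelial markers had overlapping sums (226.8 and 309.9 against 164.5 and 238.5 FPKM). Of these markers, 3 of 8 were lower in Sox4-MKO without overlap, beside 29.6% of all tested genes. The part of these cell types in the values of the members was not tested, and in bulk tissue fewer cells of a type cannot be told apart from less RNA per cell.

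The 10 members covered a wide range of levels, compared here in FPKM, which is scaled to transcript length. Over the 4 libraries Bnip3 was highest with a median of 239.2 FPKM, followed by Pink1 (121.0), Mfn2 (101.9), Mff (74.6), Fis1 (62.36), Opa1 (52.7), Mfn1 (31.55), Dnm1l (30.44), Fundc1 (14.41) and Oma1 (6.416). Bnip3 lay at the 97.2 percentile of tested genes in Sox4f/f BAT, and Oma1 at the 37.4 percentile. The ranges of neighbours in this order were separate at 4 places, between Bnip3 and Pink1, Opa1 and Mfn1, Dnm1l and Fundc1, and Fundc1 and Oma1. The ranges of the other neighbours overlapped. Even so, Pink1 exceeded Mfn2, Mfn2 exceeded Mff and Mff exceeded Fis1 in 4 of 4 libraries, whereas Fis1 exceeded Opa1 in 2 of 4 and Mfn1 exceeded Dnm1l in 3 of 4.

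**Figure D1:**
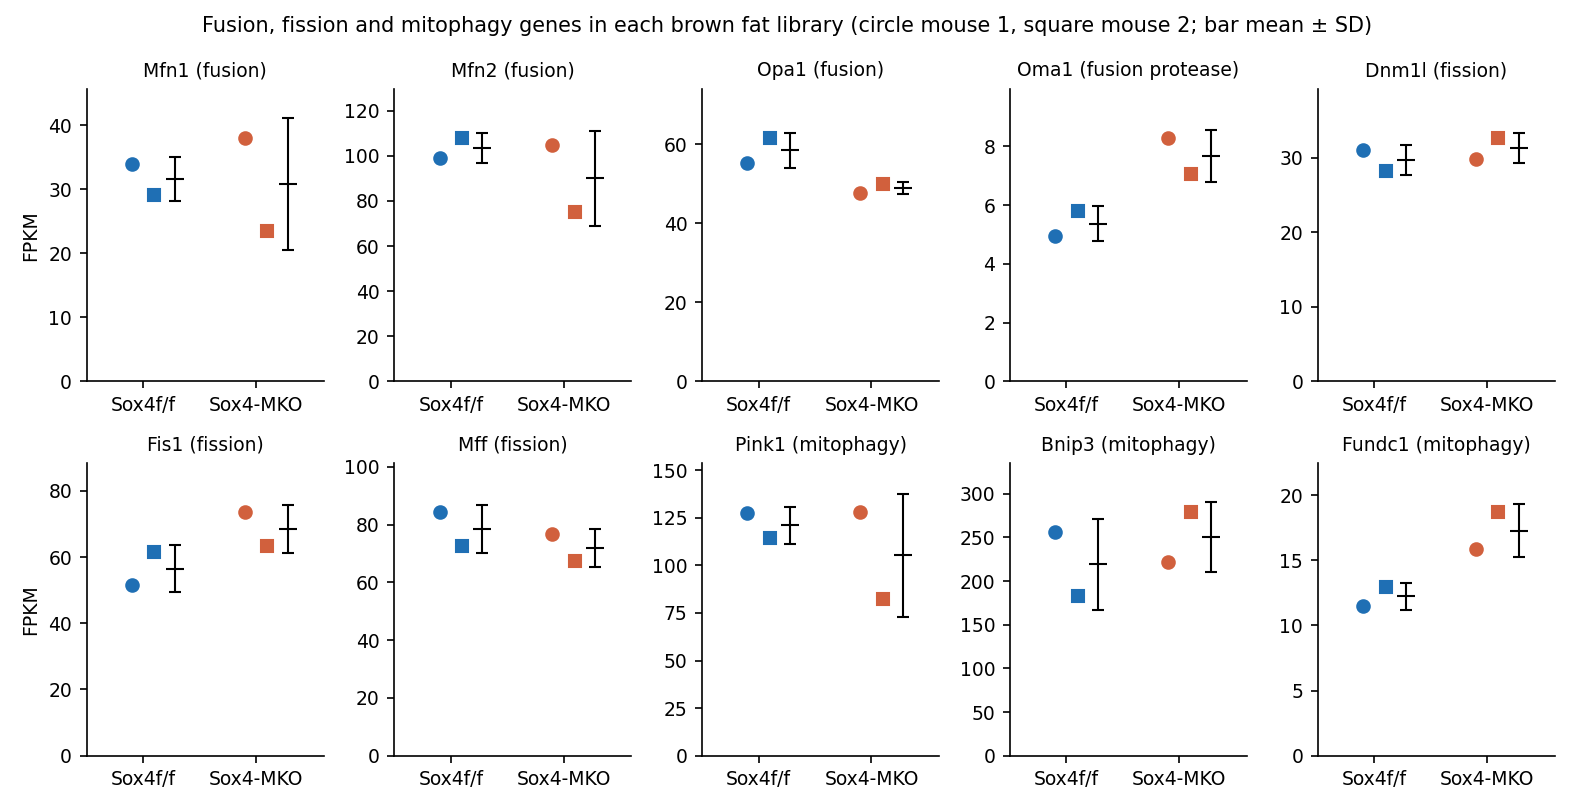
FPKM of each of the 10 genes in the 2 Sox4f/f and 2 Sox4-MKO libraries, with the mean and SD of each genotype. The genotypes are separate for Opa1, which is lower in Sox4-MKO, and for Oma1, Fis1 and Fundc1, which are higher, and they overlap for the other 6 genes.

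No member differed between the genotypes after adjustment over the 12877 genes tested, and neither did any other gene (limma, smallest adjusted p = 0.191). The study's methods give a p under 0.05 as criterion and do not say whether it was adjusted. At an unadjusted p under 0.05, 1 of 10 members was called, Fundc1 in the higher direction, beside 7.95% of all tested genes. No member was called lower, beside 8.28% of all tested genes. In either direction this was 1 of 10 members beside 16.2% of all genes, a share of members no larger than the background. The 2 genotypes did not overlap for 3 members with higher and 1 with lower values in Sox4-MKO, beside 21.7% and 29.6% of all tested genes, or for 4 of 10 members in either direction, beside 51.3%. The median log2 fold change was 0.0010 for the members and -0.051 for all tested genes. For a single gene, 0.333 is the smallest two-sided p that exact permutation of these 4 libraries allows. The limma p-values use the spread between these libraries, drawn towards that of genes at a similar level. They cover no variation beyond these mice.

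Among the fusion genes, Mfn1 (chr3:32529465-32579239) was at 33.98 and 29.13 FPKM in Sox4f/f and 38.05 and 23.47 FPKM in Sox4-MKO. The Sox4-MKO libraries held both the highest and the lowest value. The difference was therefore small beside its error, with a log2 fold change of -0.07 and a 95% interval of -0.75 to 0.61 (adjusted p = 0.909). Its partner Mfn2 (chr4:147873599-147904704) was at 98.85 and 108.0 FPKM in Sox4f/f and 105.0 and 75.13 FPKM in Sox4-MKO. Only the second Sox4-MKO library lay below the Sox4f/f range, and the log2 fold change was -0.22 with a 95% interval of -0.73 to 0.29 (adjusted p = 0.601). Without Sox4-MKO 1, the library with the highest muscle markers, it was -0.45 with an unadjusted p of 0.0307, and without Sox4-MKO 2 it was 0.02. In all 4 libraries Mfn2 exceeded Mfn1, by 2.91 and 3.71 times in Sox4f/f and by 2.76 and 3.2 times in Sox4-MKO.

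Opa1 (chr16:29579334-29654884) was at 55.39 and 61.68 FPKM in Sox4f/f and 47.79 and 50.01 FPKM in Sox4-MKO. Both Sox4-MKO libraries lay below both controls, and Opa1 was the only member with this pattern. Its mean was 58.5 ± 4.45 FPKM (SD, n = 2) against 48.9 ± 1.57 FPKM (SD, n = 2). The log2 fold change of -0.25 had a 95% interval of -0.57 to 0.07 and an adjusted p of 0.376.

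Oma1 (chr4:103313812-103371868), whose product cleaves OPA1, was at 4.938 and 5.794 FPKM in Sox4f/f and 8.289 and 7.039 FPKM in Sox4-MKO. Here both Sox4-MKO libraries lay above both controls, at 1.43 times the control mean. The log2 fold change was 0.44 with a 95% interval of -0.01 to 0.90 (unadjusted p = 0.0538, adjusted p = 0.315). Oma1 was the lowest member, and its lowest value rested on about 130 fragments. The level of Opa1 over that of Oma1 was 11.2 and 10.6 in Sox4f/f and 5.77 and 7.11 in Sox4-MKO. This ratio did not overlap between the genotypes, but the pair was chosen after the values were seen and was given no test.

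Among the fission genes, Dnm1l (chr16:16312230-16358959) varied least of all members. It was at 31.07 and 28.25 FPKM in Sox4f/f and 29.82 and 32.66 FPKM in Sox4-MKO, and its highest value was 1.16 times its lowest. The log2 fold change was 0.07, with a 95% interval of -0.27 to 0.41 (adjusted p = 0.80). Fis1 (chr5:136953275-136966234), which encodes a tail-anchored outer membrane protein, was at 51.46 and 61.48 FPKM in Sox4f/f and 73.64 and 63.25 FPKM in Sox4-MKO. Both Sox4-MKO libraries were higher than both controls, although Sox4-MKO 2 lay close to Sox4f/f 2. The log2 fold change of 0.27 had a 95% interval of -0.13 to 0.68 (adjusted p = 0.434), and was 0.15 without Sox4f/f 1 and 0.17 without Sox4-MKO 1. Mff (chr1:82724890-82752394), the DRP1 adaptor, was at 84.36 and 72.54 FPKM in Sox4f/f and 76.66 and 67.3 FPKM in Sox4-MKO. The groups overlapped, and the log2 fold change was -0.12 with a 95% interval of -0.49 to 0.25 (adjusted p = 0.691).

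The summed FPKM of Mfn1, Mfn2 and Opa1 was 1.13 and 1.23 times that of Dnm1l, Fis1 and Mff in Sox4f/f, and 1.06 and 0.911 times in Sox4-MKO. Sox4-MKO 2 was the single library in which the fission genes outweighed the fusion genes. Its fusion sum was 148.6 FPKM, against 188.2, 198.8 and 190.8 FPKM in the other libraries, whereas the fission sum ranged from 162.3 to 180.1 FPKM over all 4. Mfn2 over Fis1 was 1.92 and 1.76 in Sox4f/f and 1.43 and 1.19 in Sox4-MKO. Mff over Fis1 was 1.64 and 1.18 in Sox4f/f and 1.04 and 1.06 in Sox4-MKO. The ratios were picked with the values known and are descriptions of RNA levels, not of protein or of mitochondrial shape.

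**Figure D2:**
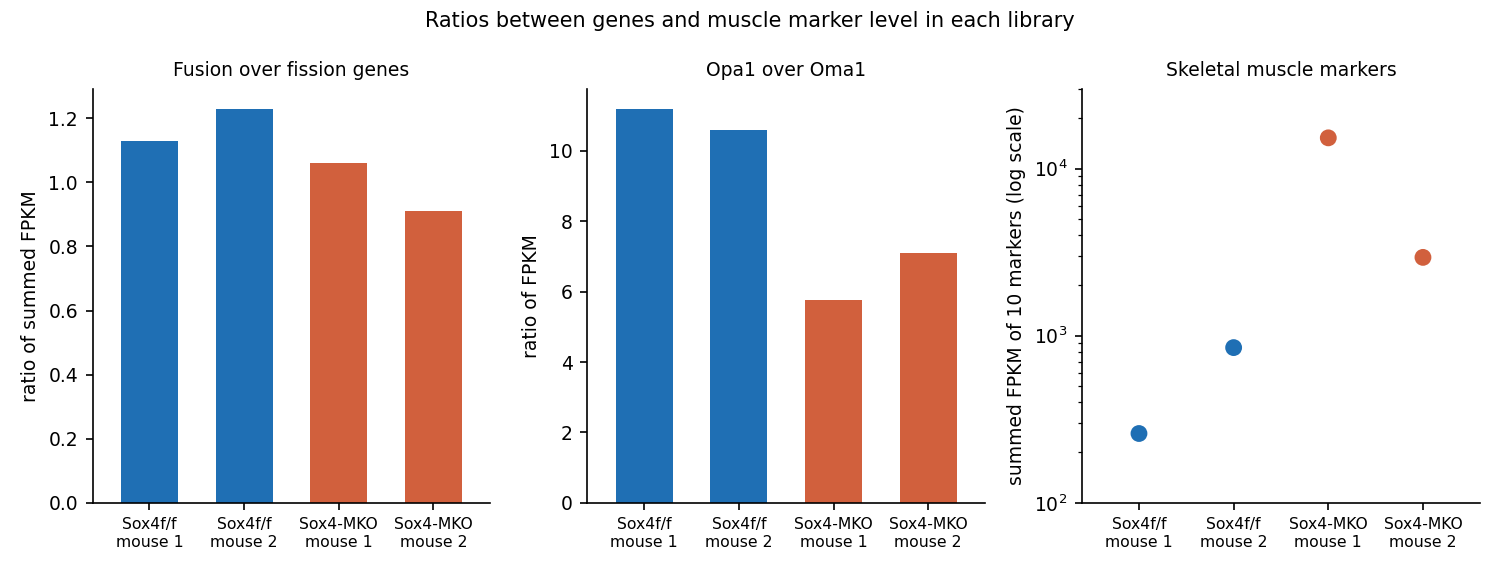
Ratio of summed fusion to summed fission FPKM, ratio of Opa1 to Oma1 FPKM, and summed FPKM of 10 skeletal muscle markers on a log axis, for each library. Both ratios are lower in the Sox4-MKO libraries, and the muscle sum is highest in Sox4-MKO 1 (15300 FPKM).

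Of the mitophagy genes, Pink1 (chr4:138313409-138326307) was at 127.8 and 114.2 FPKM in Sox4f/f and 128.1 and 82.48 FPKM in Sox4-MKO. The first Sox4-MKO library matched the higher control, and the second was the lowest of the 4. The log2 fold change was -0.23 with a 95% interval of -0.86 to 0.40 (adjusted p = 0.651). Without Sox4-MKO 1 it was -0.55 with an unadjusted p of 0.0222, and without Sox4-MKO 2 it was 0.08, so the direction depended on which Sox4-MKO mouse was kept.

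Bnip3 (chr7:138890836-138909519) was at 256.4 and 182.6 FPKM in Sox4f/f and 222.1 and 279.2 FPKM in Sox4-MKO. The control libraries alone differed by 40.4%, the widest gap between the controls of any member, and the groups overlapped (log2 fold change 0.20, 95% interval -0.38 to 0.78, adjusted p = 0.671). Without Sox4f/f 2 its log2 fold change was -0.04. Fundc1 (chrX:17556564-17572325) was at 11.51 and 12.98 FPKM in Sox4f/f and 15.84 and 18.71 FPKM in Sox4-MKO. Both Sox4-MKO libraries lay above both controls, at 1.41 times the control mean. Its log2 fold change of 0.46, with a 95% interval of 0.05 to 0.87, had an unadjusted p of 0.0338 and an adjusted p of 0.270. Without Sox4f/f 1, Sox4f/f 2 or Sox4-MKO 2 the unadjusted p was 0.164, 0.0790 and 0.131, and its lowest value rested on an estimated 70 to 310 fragments, depending on the transcript.

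**Figure D3:**
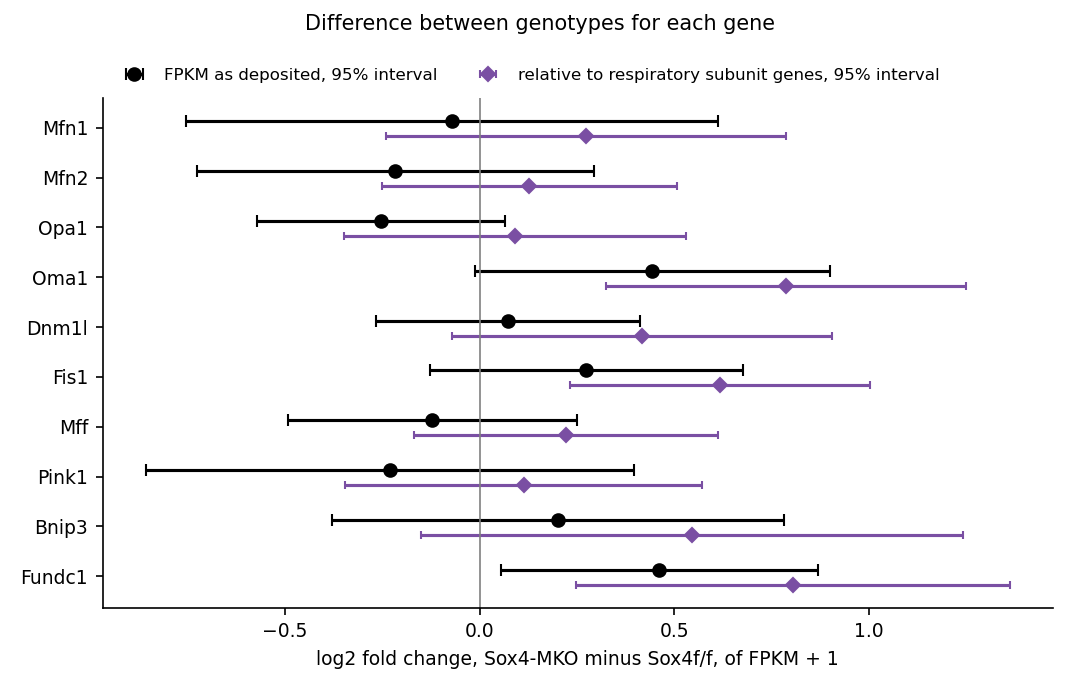
Log2 fold change of each member, Sox4-MKO minus Sox4f/f, with 95% intervals from limma, from the deposited FPKM and after each library was shifted by the mean of 74 respiratory subunit genes. The first intervals include 0 for every member except Fundc1, and the shifted intervals lie above 0 for Oma1, Fis1 and Fundc1.

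The 2 Sox4-MKO libraries differed from each other in part of the members. From Sox4-MKO 1 to Sox4-MKO 2 the log2 level differed by -0.67 for Mfn1, -0.63 for Pink1 and -0.48 for Mfn2, against a median of -0.092 for all tested genes. In the same difference, 9.0% of all tested genes lay lower than Mfn1 and 15.5% lower than Mfn2. Bnip3 and Fundc1 differed the other way, by 0.33 and 0.23. The sum of muscle markers was 5.2 times higher in Sox4-MKO 1 than in Sox4-MKO 2, and the part of muscle RNA in these differences was not tested.

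The nuclear genes for respiratory chain and ATP synthase subunits served as a reference for mitochondrial transcripts as a whole. Of these 74 genes, 71 had a negative log2 fold change, with a median of -0.42, and 43 were called lower at an unadjusted p under 0.05, or 58.1%, beside 8.28% of all tested genes. That count was 4 without Sox4f/f 1, 5 without Sox4f/f 2, 62 without Sox4-MKO 1 and 26 without Sox4-MKO 2, with 71, 71, 72 and 67 genes negative. It was 20 with quantile normalization, where the median was -0.26, 22 without moderation and 26 with the replicate block. The mean log2(FPKM + 1) of the reference was 9.01 and 9.03 in Sox4f/f and 8.81 and 8.54 in Sox4-MKO.

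Shifting each library by this mean raised the log2 fold change of every gene by the same amount. After the shift all 10 members had a positive log2 fold change, with a median of 0.34, and the median of all tested genes was 0.29. The median of the respiratory genes themselves was -0.072. Their mean includes Atp5g1 and Atp5g3, with log2 fold changes of 3.02 and 0.87 before the shift. Oma1 had a relative log2 fold change of 0.79 (SE 0.18, unadjusted p = 0.00672, limma adjusted p = 0.0992), Fundc1 0.81 (SE 0.22, unadjusted p = 0.0133, adjusted p = 0.125) and Fis1 0.62 (SE 0.15, unadjusted p = 0.00867, adjusted p = 0.108). These 3 of 10 members were called higher relative to the respiratory genes, beside 23.5% of all tested genes, so the share of members was near that of genes in general. None was called lower, beside 0.660% of all tested genes, and 24.2% of all genes were called in either direction. No gene passed the adjusted threshold. With 14 genes for import, chaperones, porins and other general mitochondrial proteins as the reference in place of the respiratory genes, the same 3 members were called higher, beside 16.5% of all tested genes, with relative log2 fold changes of 0.65 for Oma1, 0.67 for Fundc1 and 0.48 for Fis1. With that reference not all members were positive, since Mfn2, Opa1 and Pink1 had relative log2 fold changes of -0.01, -0.05 and -0.03. Opa1, Pink1 and Mfn2 were nearest to the respiratory genes, with relative log2 fold changes of 0.09, 0.11 and 0.13. Without Sox4f/f 1 no member was called in this comparison, and without Sox4-MKO 1 there were 5.

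Other genes that act with the members were described by list. The list for fusion and inner membrane shape held 22 genes, of which 20 had a negative log2 fold change and 2 a positive one, with a median of -0.31. Relative to the respiratory genes the median was 0.036, with 1 gene called higher and none lower. In the direct comparison, 58.1% of the respiratory genes and 35.7% of the 14 general mitochondrial genes were called lower. In this list 7 of 22 were called lower at an unadjusted p under 0.05, or 31.8%, beside 8.28% of all tested genes. None was called higher or passed adjustment. The count was 2 without Sox4f/f 1, 3 without Sox4f/f 2 and 9 without Sox4-MKO 1, while 20 genes stayed negative in each case. Afg3l2, a subunit of the m-AAA protease of the inner membrane, was at 90.77 and 79.26 FPKM in Sox4f/f and 57.07 and 53.22 FPKM in Sox4-MKO (log2 fold change -0.61, SE 0.13, adjusted p = 0.210). Micos13, a subunit of the MICOS complex at crista junctions, was at 177.9 and 180.2 FPKM against 133.4 and 125.4 FPKM, and Samm50, which sorts barrel proteins into the outer membrane and binds MICOS, at 94.38 and 102.7 FPKM against 72.37 and 70.06 FPKM. The log2 fold changes of Micos13 and Samm50 were -0.47 and -0.46. Lack of overlap between the genotypes was a condition for naming these genes.

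A further protease acts on OPA1 beside OMA1. Yme1l1, the i-AAA protease that cleaves OPA1 constitutively, was at 28.19 and 27.82 FPKM in Sox4f/f and 32.6 and 35.28 FPKM in Sox4-MKO. Its log2 fold change was 0.27 (limma unadjusted p = 0.0788, adjusted p = 0.354). Like Oma1 it was higher in Sox4-MKO without overlap, as were 21.7% of all tested genes. It was singled out after its values were seen, from a list with 20 negative and 2 positive log2 fold changes. Phb2, a prohibitin that scaffolds the inner membrane and stabilises OPA1, was at 164.9 and 164.6 FPKM in Sox4f/f and 120.6 and 120.3 FPKM in Sox4-MKO. Its log2 fold change was -0.45 (limma adjusted p = 0.214), and it was likewise chosen by its values. A link of these values to OPA1 processing was not tested.

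The list of fission adaptors and cofactors held 15 genes, and 13 were tested. Of these, 11 had a negative and 2 a positive log2 fold change, with a median of -0.17. A single gene, or 7.69% of those tested, was called lower, which is near the 8.28% of all tested genes. That gene was Mul1, an outer membrane ubiquitin ligase that acts on mitofusins and DRP1, at 22.56 and 21.11 FPKM in Sox4f/f and 15.19 and 14.04 FPKM in Sox4-MKO (log2 fold change -0.55, unadjusted p = 0.0098, adjusted p = 0.214). Without Sox4f/f 1 its unadjusted p was 0.0698. The DRP1 receptors Mief1 and Mief2, the MiD proteins, had log2 fold changes of -0.22 and -0.37. Neither was called (limma unadjusted p = 0.226 and 0.165), and Mief2 overlapped between the genotypes. Both were named outside the rule for named genes given below.

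Of 20 genes for mitophagy receptors and the ubiquitin route of mitophagy, 19 were tested and Calcoco2 was listed at 0 in all 4 libraries. The signs were divided, with 11 negative and 8 positive, and the median of -0.057 was close to that of all tested genes. It became 0.087 without Sox4f/f 1 and 0.0093 when libraries were rescaled without mitochondrially encoded genes and Ucp1. Bnip3l, the paralogue of Bnip3 also known as Nix, was at 36.29 and 38.9 FPKM in Sox4f/f and 46.4 and 41.16 FPKM in Sox4-MKO, and Fundc2 at 40.93 and 37.66 against 61.51 and 45.56 FPKM. As with Fundc1, both Sox4-MKO libraries lay above both controls for these 2 receptor relatives. Their log2 fold changes of 0.21 and 0.42 did not pass the unadjusted threshold. Over the list, 3 of 19 tested genes were higher without overlap and 8 were lower, beside 21.7% and 29.6% of all tested genes. The receptors Bcl2l13 and Fkbp8 were among the lower ones, with log2 fold changes of -0.36 and -0.17. These genes were named outside the rule for named genes given below.

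**Figure D4:**
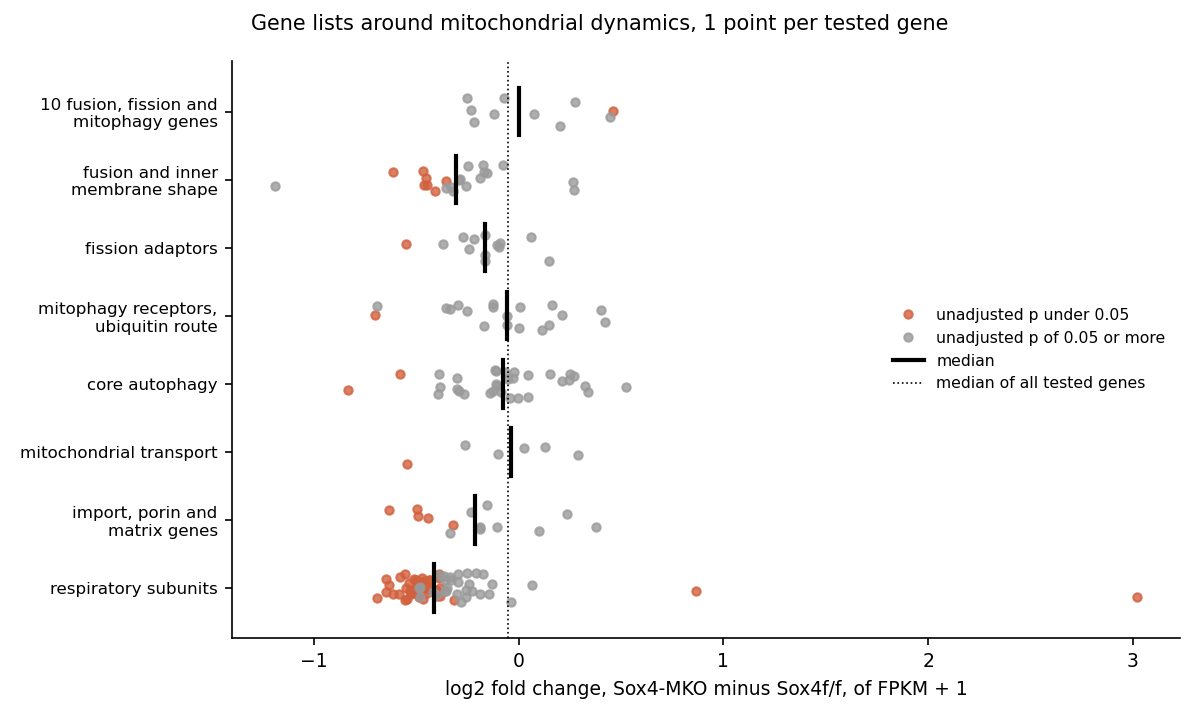
Log2 fold change, Sox4-MKO minus Sox4f/f, of every tested gene in each list, with the median of each list and a dotted line at the median of all tested genes (-0.051). The members are spread around that line, whereas 20 of 22 genes for fusion and inner membrane shape and 71 of 74 respiratory genes lie below 0.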

How the data were processed

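The authors deposited 1 table of FPKM values per library, that is, fragment counts scaled to transcript length and sequencing depth. The submitters' processing notes name Cufflinks 2.1.1, Cuffdiff and mm10; their roles, the aligner and the annotation are not given in the sources used here. The labels name a stranded kit, but the strand setting of counting is not stated. Antisense genes that share exons with Dnm1l, Mff and Bnip3 could therefore contribute to them. Pink1 shares exons with Gm27646 and Mir7019 on its own strand, which no strand setting separates. FPKM depends on the isoforms assumed, and Mff has 16 annotated transcripts. No counts were used. Steps between low FPKM values gave approximate depths of 12000000 to 16100000 fragments.

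Values were analysed as log2(FPKM + 1) with limma 3.58.1 in R 4.3.3, a trended moderated fit with genotype as the only term, over 12877 genes with averaged FPKM above 1 in at least 1 genotype. Tests were two-sided, with Benjamini-Hochberg adjustment over all genes. A fold change on this scale understates changes of low genes. The methods state a p under 0.05, do not say whether it was adjusted, and name no test for this step. The fit was tested on simulated data. Replicate numbers are those of the titles. The labels name no batch. Coordinates are from GENCODE M21 on GRCm38, the assembly of mm10, and promoters from RefSeq on GRCm38.p6. The members and lists were chosen with earlier results of these data known. All members were named, with up to 3 genes per direction and list that had the largest fold change among those at an unadjusted p under 0.05 without overlap. Alternatives covered scaling, filters, pseudocount, moderation, each library left out and a replicate block; their use on the lists was added after the data were seen. A result of the mitophagy list is not reported here.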

Additional observations from a re-analysis of the deposited data

How the results depend on the processing

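No member had an adjusted p under 0.05 in any of the 13 alternatives. The filters, the omission of moderation and the replicate block leave the log2 fold change of a gene unchanged, so they cannot alter a direction. Leaving out 1 library cannot reverse Opa1, Oma1, Fis1 or Fundc1 either, since their genotypes did not overlap. Within these limits, Opa1, Oma1, Dnm1l, Fis1, Mff and Fundc1 kept their direction in all 13 alternatives. With 1 library left out their log2 fold changes ranged from 0.0062 (without Sox4f/f 2) to 0.139 for Dnm1l and -0.229 to -0.014 (without Sox4f/f 1) for Mff. The ranges were 0.149 (without Sox4f/f 1) to 0.401 for Fis1 and -0.329 to -0.177 for Opa1. They were 0.340 to 0.549 for Oma1 and 0.348 to 0.575 for Fundc1. The count of members called at an unadjusted p under 0.05 (1 as reported) was 0 with libraries scaled to a common median, 0 without moderation, 2 with a pseudocount of 0.1, 2 when rescaled without mitochondrially encoded genes and Ucp1, and 0 to 3 with 1 library left out. Relative to the respiratory genes (3 as reported) it was 0 to 5 with 1 library left out. The count of all genes called (2090) was 849 to 2394 with 1 library left out. Its split of 1066 lower and 1024 higher became 746 and 1322 when rescaled, 935 and 553 without moderation, 986 and 684 with averaged FPKM above 5, and 835 and 1559 without Sox4-MKO 2. With 1 library left out, log2 fold changes crossed 0 for Bnip3 (-0.042 without Sox4f/f 2, to 0.445), Mfn1 (-0.408 to 0.266, and 0.037 without Sox4f/f 1), Mfn2 (-0.455 to 0.022) and Pink1 (-0.545 to 0.083), for the last 3 with the highest value without Sox4-MKO 2. Oma1 was called when rescaled (unadjusted p = 0.0289) and with a pseudocount of 0.1 (0.0493), and Fundc1 was not with a common median (0.0597) or without moderation (0.0797). The cause was not tested.

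With the replicate number as a block, 1 member was called, 3 relative to the respiratory genes, and 1908 genes in all. The deviations of same-numbered libraries had a correlation of -0.012 over 12877 genes, so the numbers were not shown to pair the mice.

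With 2 mice per genotype the intervals are wide: for Mfn1, Mfn2, Pink1 and Bnip3 they span more than a log2 unit. Oma1 and Fundc1, the lowest members, rest on the fewest fragments.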

Other observations

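Core autophagy genes, which serve mitophagy and bulk autophagy alike, showed no shared direction. Of 32 tested, 22 had a negative and 10 a positive log2 fold change, with a median of -0.075, and 2 were called lower at an unadjusted p under 0.05, or 6.25%, beside 8.28% of all tested genes. Without Sox4-MKO 2 the signs were 15 negative and 17 positive. Wipi2, which binds phosphatidylinositol 3-phosphate on forming autophagosomes, was at 68.01 and 47.94 FPKM in Sox4f/f and 29.4 and 33.96 FPKM in Sox4-MKO (log2 fold change -0.83, adjusted p = 0.222). Ulk1, the kinase that starts autophagy, was at 21.73 and 22.74 FPKM against 14.84 and 14.25 FPKM (log2 fold change -0.58, adjusted p = 0.212). In both genes the Sox4-MKO libraries lay below both controls, which was a condition for naming them.

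Of 6 genes for mitochondrial transport along microtubules, 3 had a negative and 3 a positive log2 fold change. A single gene was called lower, or 16.7% of the list, beside 8.28% of all tested genes. Rhot2, which encodes the outer membrane GTPase Miro2, was the 1 gene called, at 42.31 and 46.14 FPKM in Sox4f/f and 35.74 and 25.13 FPKM in Sox4-MKO (log2 fold change -0.54, unadjusted p = 0.0458, adjusted p = 0.299). Without Sox4-MKO 2 its log2 fold change was -0.30 and its unadjusted p 0.107.

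Ppargc1a, the coactivator of mitochondrial biogenesis, was at 48.19 and 22.38 FPKM in Sox4f/f and 13.16 and 14.21 FPKM in Sox4-MKO (log2 fold change -1.21, adjusted p = 0.254, and -0.67 without Sox4f/f 1). Among the respiratory genes, Cox6a1, Ndufs7 and Ndufa1 had the most negative log2 fold changes of those called, -0.69, -0.65 and -0.65, and that of Cox6a1 was -0.35 after quantile normalization. Atp5g1 and Atp5g3 were the 2 called higher, or 2.7% of the list, beside 7.95% of all tested genes. They encode the c subunit of ATP synthase, and whether their reads are split between related copies was not tested. Atp5g1 was at 12.39 and 28.27 FPKM in Sox4f/f and 286.4 and 88.6 FPKM in Sox4-MKO, and the log2 fold change of Atp5g3 was 0.87, or 0.48 without Sox4-MKO 1. Of the 14 general mitochondrial genes, 5 were called lower, or 35.7%, beside 8.28% of all tested genes. Timm50, Tomm40 and Timm44 had log2 fold changes of -0.64, -0.50 and -0.49. The count was 3 with quantile normalization. The list median of -0.21 was -0.17 without Sox4f/f 1 and -0.26 without Sox4f/f 2.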
